A study of Mus musculus with 6 samples.

Results

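The transcription factor genes Tfeb, Tfe3 and Mitf, the gene of their regulator Flcn, and 6 genes of autophagy (Sqstm1, Map1lc3b, Gabarapl1, Ulk1, Uvrag and Wipi1) were followed in cultured mouse alveolar macrophages. The 10 genes were listed by name, matched by symbol, and were all found among the 16840 genes of the deposited count table. All 10 also passed the filter on low counts, which left 12340 genes for testing. The cells were wild type and were taken at day 2 in 3 groups of 2 libraries each. The first group had no GM-CSF, another had GM-CSF alone and is the control of the treatment, and the DON group had GM-CSF plus an agent that the labels call DON. Alveolar macrophages, the resident phagocytes of the air spaces, depend on the cytokine GM-CSF. The labels do not spell out DON, give its dose, say from what event the day was counted, or say whether the cell line they name AM was primary or established. Nothing states that the replicates came from different cultures or mice, and the p-values therefore cover the spread between these libraries alone, which may be technical.

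Total counts were between 28321986 and 35196387 per library, and the 10 genes had between 277 (Wipi1) and 25353 (Sqstm1) counts in a library. Macrophage identity was checked on 12 markers, all of which had counts. Their summed level was 46740 to 47370 CPM (counts relative to the TMM-scaled library size) without GM-CSF, 29370 to 29420 with GM-CSF and 34030 to 35720 in the DON group. Most of that sum was the lysozyme gene Lyz2, at 36595, 17076 and 18914 CPM in the 3 groups. The other 11 markers summed to 10165 to 10749, 12321 to 12322 and 15873 to 16051 CPM. With GM-CSF that sum rose through Chi3l3 and Car4, given below. Itgax was level (3028 CPM without and 3035 CPM with GM-CSF), and the remaining markers, like Lyz2, had lower means with GM-CSF. Siglec5, the symbol under which the table holds the alveolar macrophage lectin Siglec-F, stood at 494, 394 and 474 CPM. Car4, another alveolar macrophage marker, was near absent without GM-CSF, at 0.226 CPM, against 656 and 314 CPM in the other groups. Chi3l3, also typical of these cells, was at 1814, 5543 and 7702 CPM. The general macrophage genes Emr1 (289, 54.4 and 93.8 CPM), Csf1r (798, 362 and 242 CPM) and Cd68 (2864, 1633 and 2286 CPM) and the scavenger receptor gene Marco (103, 83.7 and 36.7 CPM) were highest without GM-CSF. Dendritic cell markers (5 of 5 in the table) summed to 8.65 to 8.82, 27.5 to 27.9 and 25.2 to 25.4 CPM. The 1 granulocyte marker of 5 in the table, S100a8, gave 16.0 to 17.2, 3.76 to 4.34 and 3.04 to 3.78 CPM. Stroma and endothelium markers (6 of 6) summed to 0.430 to 0.772 CPM without GM-CSF and at most 1.88 CPM otherwise, and lung epithelium markers (6 of 6) to 3.97 to 5.02 CPM without GM-CSF and at most 1.78 CPM otherwise. Only Kit of 7 mast cell markers and 1 of 5 lymphocyte markers were in the table, at no more than 0.101 and 0.0307 CPM. The macrophage, dendritic, granulocyte, stroma and epithelium sums moved with the groups, and their part in the results below was not tested.

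Autophagy encloses cytoplasm in a double membrane, the autophagosome, and delivers it to the lysosome, a route that macrophages use for damaged organelles, protein aggregates and engulfed material. TFEB, TFE3 and MITF are basic helix-loop-helix leucine zipper proteins of the MiT-TFE family. The mTORC1 kinase at the lysosome holds them in the cytoplasm, and when it is inactive they enter the nucleus and bind E-boxes (CACGTG) in front of lysosomal and autophagy genes, the CLEAR network. Folliculin, the product of Flcn, acts with its FNIP partners on the RagC and RagD GTPases, the step that presents TFEB and TFE3 to mTORC1. Because the factors are controlled by location, their RNA level is a separate quantity from their activity, which was not measured.

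GM-CSF came with lower RNA of the members. With GM-CSF against without, 9 of the 10 genes fell, where 29.3% of all genes tested fell and 56.8% changed in either direction. The members were chosen with earlier results of these data known. Setting their share beside that of all genes, here or with DON, is therefore no independent test. No member rose by edgeR's quasi-likelihood test, nor at an unadjusted p under 0.05 (0 genes), by DESeq2 (0) or by limma on the FPKM values (0), and Wipi1 did not pass the test. The falls of Tfe3, Sqstm1, Map1lc3b, Gabarapl1 and Ulk1 were called in all 11 alternative analyses, and those of Tfeb, Mitf, Flcn and Uvrag were not. The falls were modest, with a median log2 fold change of -0.27 over the 10 members against -0.02 over all genes tested, and a median absolute log2 fold change of 0.27 against 0.32. With DON on top of GM-CSF, 7 of 10 rose, where 28.8% of all genes rose and 57.6% changed. Here the median was 0.45 over the members and 0.01 over all genes, and the median absolute log2 fold change 0.45 against 0.33. Each of the 7 rises was called in all 11 alternatives. Wipi1 fell, and Tfe3 and Mitf did not pass the test. The DON group against no GM-CSF gave 5 members higher, 1 lower and 4 not called, against 27.2% of all genes higher, 28.4% lower and 55.6% in either direction. All 3 comparisons draw on the same 6 libraries, and the first and second share those with GM-CSF alone, so opposite signs in them are not independent observations. In bulk RNA, fewer cells of a type and less RNA per cell cannot be told apart.

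**Figure D1:**
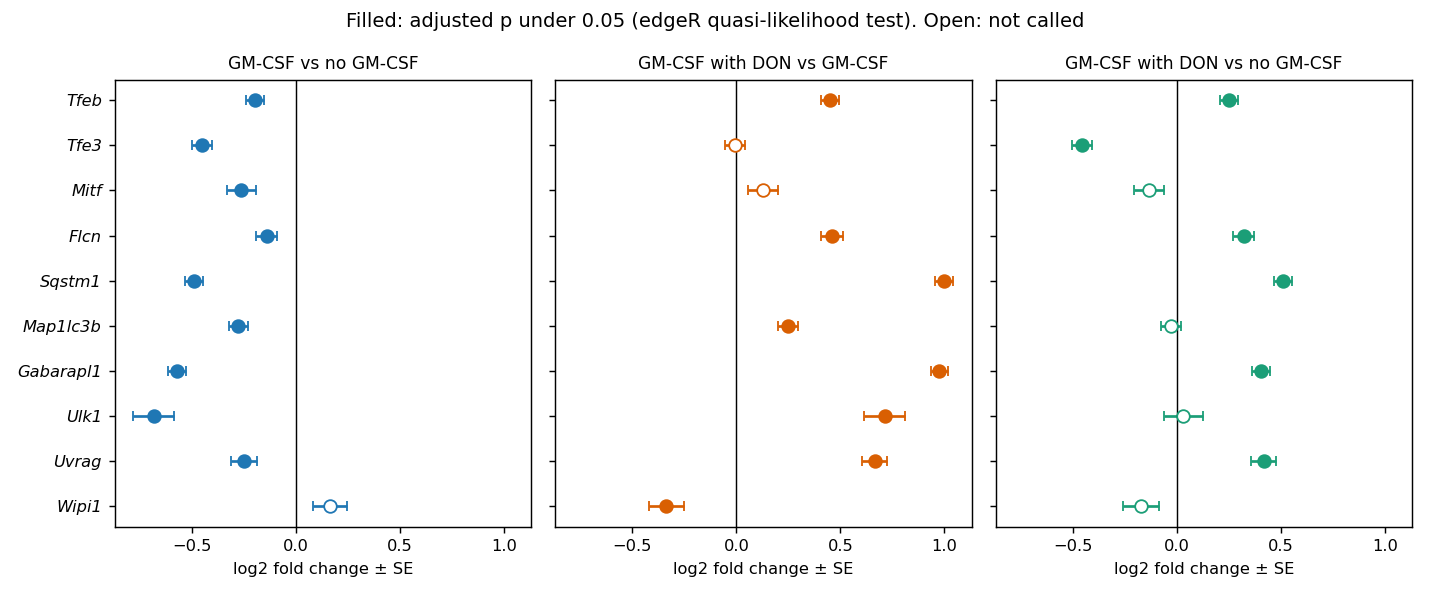
Log2 fold change (x axis) of each of the 10 genes (rows) in the 3 comparisons (panels), with bars of 1 standard error; filled points passed an adjusted p of 0.05 and open points did not. With GM-CSF 9 filled points lie below 0, and with DON against GM-CSF 7 lie above 0 and that of Wipi1 below.

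Promoter stretches are shown for Sqstm1 and Gabarapl1, the members that rose most with DON, for Flcn, whose window holds a motif added after the windows had been seen, and for 3 pathway genes that rose with DON and hold an E-box. The Flcn and pathway stretches were picked for their motifs. Windows of 250 bases before each RefSeq start (mouse build GRCm38.p6) were searched on both strands for the E-box CACGTG, its CLEAR form GTCACGTG, the ATF4 element TGATGCAA, the antioxidant response element TGACNNNGC and the forkhead element GTAAACA. The CLEAR form contains the E-box and is counted under both. All 10 members matched by symbol, with 15 windows. The E-box was in 6.02% of all 32851 windows and in 0 of the 15 of the members. Their windows also had 0 matches to the CLEAR form (1.85% of all windows), the ATF4 element (0.791%) and the forkhead element (3.17%). The antioxidant response element (10.2%) was in 1, a start of Mitf, with its first base 241 and 16 bases before that start. A cyclic AMP response element, TGACGTCA, was added after these windows had been seen. It was in 1.55% of all windows and in 2 of the 15, 1 of Flcn and 1 of Mitf. A match is a run of letters and not a shown site, and no match says only that the letters are not in the window. The stretches below run 5′ to 3′ on the gene's strand, and capitals mark the motif where one was found.
Sqstm1, chr11:50210821-50211070, minus strand, up to the start, no motif: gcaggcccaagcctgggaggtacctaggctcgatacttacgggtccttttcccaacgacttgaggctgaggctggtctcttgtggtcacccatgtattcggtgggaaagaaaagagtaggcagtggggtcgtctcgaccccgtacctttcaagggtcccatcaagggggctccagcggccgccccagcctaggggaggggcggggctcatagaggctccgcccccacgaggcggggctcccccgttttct
Gabarapl1, chr6:129532942-129533191, plus strand, up to the start, no motif: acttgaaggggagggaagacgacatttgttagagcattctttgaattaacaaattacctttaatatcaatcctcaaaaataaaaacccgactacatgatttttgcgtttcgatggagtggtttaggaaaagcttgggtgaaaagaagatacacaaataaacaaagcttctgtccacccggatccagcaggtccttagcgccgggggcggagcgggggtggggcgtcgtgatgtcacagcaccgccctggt
Flcn, chr11:59810040-59810289, minus strand, cyclic AMP response element 49 bases before the start: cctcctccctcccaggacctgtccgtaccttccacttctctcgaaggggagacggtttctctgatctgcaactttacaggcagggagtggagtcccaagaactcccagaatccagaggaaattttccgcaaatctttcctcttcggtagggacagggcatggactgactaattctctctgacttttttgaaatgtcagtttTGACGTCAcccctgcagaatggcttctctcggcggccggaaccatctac
Mcoln1, chr8:3500408-3500518, plus strand, E-boxes 71 and 45 bases before the start: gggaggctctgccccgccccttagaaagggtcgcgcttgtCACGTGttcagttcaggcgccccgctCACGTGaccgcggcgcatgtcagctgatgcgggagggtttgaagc
Gaa, chr11:119267783-119267868, plus strand, E-box 140 bases before the start: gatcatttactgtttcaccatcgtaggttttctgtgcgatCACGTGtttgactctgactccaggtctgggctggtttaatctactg
Clcn7, chr17:25133336-25133390, plus strand, E-box 15 bases before the start: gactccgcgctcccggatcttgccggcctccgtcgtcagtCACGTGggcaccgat

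Mcoln1, Gaa and Clcn7 are not members. As printed, the E-boxes of Mcoln1 and Clcn7 lie in the CLEAR form on either strand, and that of Gaa does not. The genes encode the lysosomal calcium channel TRPML1, acid alpha-glucosidase and a lysosomal chloride transporter, and come from the pathway lists described further on. Over those lists 86 genes had a window and 25 of them (29.1%) held an E-box, against 6.86% of all genes with a window. The lists include genes named for being targets of TFEB, so this share is not independent of the lists' making.

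Expression per transcript length, read from the authors' FPKM values, which scale fragments to transcript length and library size, ordered the members from the receptor gene Sqstm1 to the lipid-binding gene Wipi1. Averaged over the 3 groups the FPKM level was 313 for Sqstm1, 125 for Map1lc3b, 116 for Gabarapl1, 82.4 for Tfeb, 46.8 for Tfe3, 38.4 for Flcn, 14.4 for Uvrag, 8.96 for Mitf, 7.17 for Ulk1 and 5.10 for Wipi1. Sqstm1 stood above 98.1% of the genes in the table and Wipi1 above 53.4%. Some neighbours in this order changed places between groups. Gabarapl1 lay below Map1lc3b without GM-CSF (116 ± 0.682 against 133 ± 1.80 FPKM; SD, n = 2 here and throughout) and with GM-CSF (78.6 ± 1.68 against 110 ± 2.64), and above it with DON (153 ± 2.84 against 130 ± 6.11). Ulk1 lay above Wipi1 without GM-CSF (8.14 ± 0.664 against 5.03 ± 0.238) and below it with GM-CSF (5.11 ± 0.658 against 5.81 ± 0.0638). With DON, the libraries of Tfe3 (43.96 and 40.95 FPKM) overlapped those of Flcn (46.7 and 43.83), and those of Mitf (7.99 and 9.22) overlapped those of Ulk1 (7.74 and 8.79). The other neighbouring pairs did not overlap within any group.

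**Figure D2:**
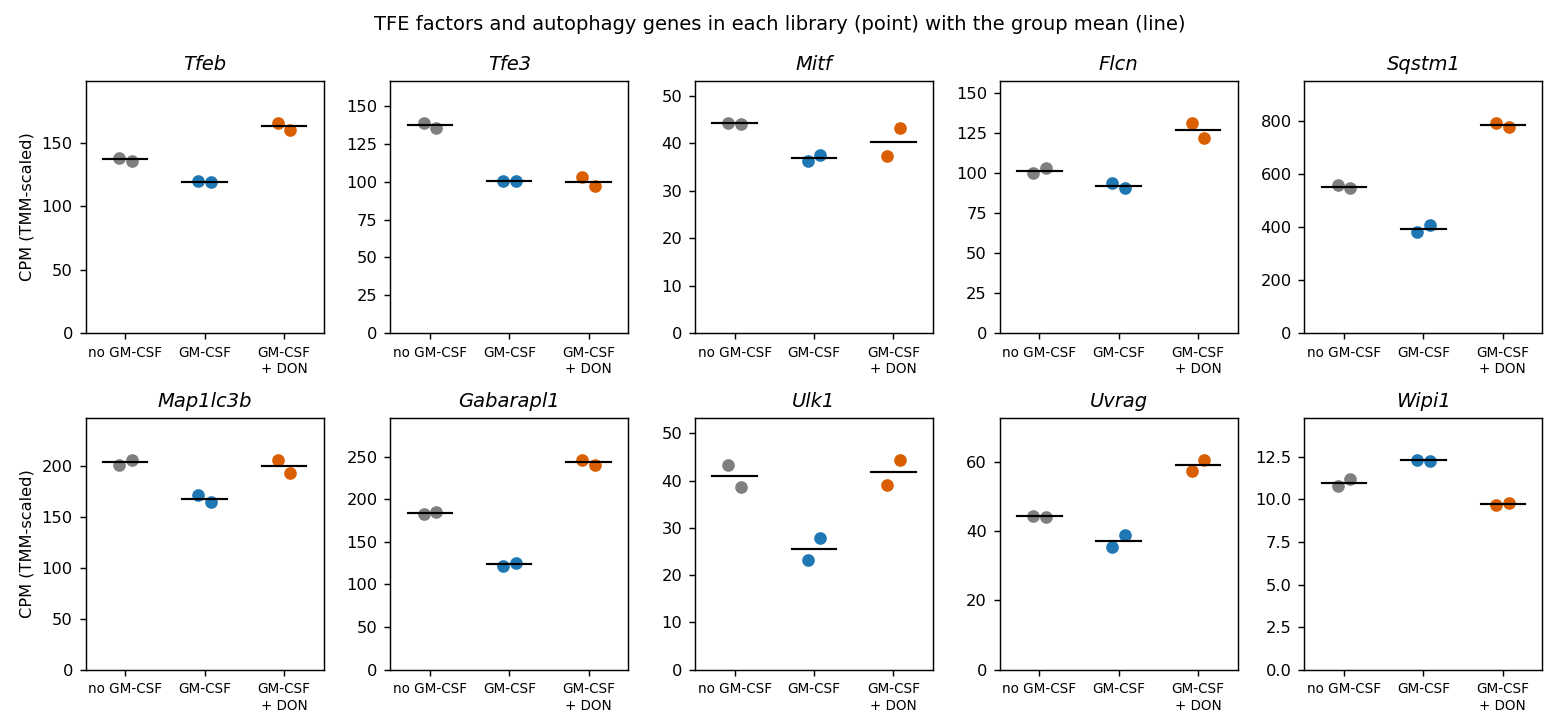
Level of each of the 10 genes in every library (points; y axis, TMM-scaled CPM, from 0), with the mean of the 2 libraries of a group as a line. Libraries with GM-CSF alone are the lowest for Sqstm1, Gabarapl1, Ulk1, Uvrag, Map1lc3b, Flcn and Tfeb, and the highest for Wipi1.

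Tfeb (chr17:47737037-47792416, protein coding, as are all 10 genes by the RefSeq annotation of GRCm38.p6) had the largest part of the family's RNA. Without GM-CSF it was at 138 and 136 CPM, with GM-CSF at 119 in both libraries, and in the DON group at 165 and 160 CPM. The 3 groups did not overlap, with the GM-CSF libraries lowest and the DON libraries highest. Tfeb fell with GM-CSF by 0.20 on the log2 scale (SE 0.04, edgeR adjusted p = 0.00315) and rose with DON by 0.45 ± 0.04 (log2 fold change ± SE, edgeR adjusted p = 1.52e-05), or 1.37-fold. Against no GM-CSF, the DON group was higher by 0.25 ± 0.04 on the same scale (edgeR adjusted p = 0.000758). The fall with GM-CSF is small and was not called with limma on the deposited FPKM values (log2 fold change -0.06, adjusted p = 0.312, where the adjusted p ranged from 0.00139 to 0.312 over the alternatives). In those values the gene length implied by counts over FPKM was 1.07 and 1.04 times the mean for Tfeb without GM-CSF and between 0.958 and 0.996 times in the other libraries. The cause of this was not tested.

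Tfe3 (chrX:7762530-7775202) separated from Tfeb in its response to DON. It was at 139 and 136 CPM without GM-CSF, 101 and 100.3 with GM-CSF alone, and 103 and 97.1 in the DON group. Both groups with GM-CSF lay below the group without, and they overlapped each other. Tfe3 fell with GM-CSF by 0.45 on the log2 scale (SE 0.05, edgeR adjusted p = 2.39e-05) and was lower in the DON group than without GM-CSF (-0.46 ± 0.05, edgeR adjusted p = 2.24e-05). DON against GM-CSF gave -0.01 ± 0.05 (edgeR adjusted p = 0.897), with values from -0.05 to 0.07 over the alternatives. Tfe3 was the 1 member lower in the DON group than without GM-CSF. When replicate 2 with DON was left out, Mitf was called lower as well, which made 2.

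Mitf (chr6:97807002-98021360), the family member best known from pigment cells, mast cells and osteoclasts, was much lower per length. It was at 44.3 and 44.1 CPM without GM-CSF, 36.2 and 37.6 with GM-CSF alone, and 37.3 and 43.2 in the DON group. The DON libraries differed from each other by more than the other pairs did, and 1 of them lay within the range of the libraries with GM-CSF alone. The fall with GM-CSF was 0.26 on the log2 scale (SE 0.07, edgeR adjusted p = 0.00991). It was not called without replicate 1 of the GM-CSF group (-0.23, adjusted p = 0.0774) or with limma on FPKM (-0.26, adjusted p = 0.0634), the lowest adjusted p over the alternatives being 0.00444. DON against GM-CSF gave 0.13 ± 0.07 (edgeR adjusted p = 0.154). Upper-quartile scaling (0.20, adjusted p = 0.0313) and leaving out replicate 1 with DON (0.23, adjusted p = 0.022) each turned that into a call, and the highest adjusted p over the alternatives was 0.834. The DON group against no GM-CSF gave -0.13 ± 0.07 (edgeR adjusted p = 0.136), and -0.24 (adjusted p = 0.0195) without replicate 2 with DON, in a range up to 0.705.

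The fourth gene of the family, Tfec, which is expressed mainly in macrophages, went the other way with GM-CSF. It rose from 40.9 ± 1.21 to 95.6 ± 0.0167 CPM (log2 fold change 1.22 ± 0.05, edgeR adjusted p = 2.65e-08) and fell with DON to 69.9 ± 1.49 CPM (-0.45 ± 0.05, edgeR adjusted p = 2.90e-05). Of the summed FPKM of the 4 genes, Tfeb held 45.4 ± 0.977% without GM-CSF, 39.8 ± 0.382% with GM-CSF and 50.8 ± 0.624% in the DON group. Tfec held 15.3 ± 0.631%, 32.8 ± 0.194% and 22.7 ± 0.323%. The share of Tfe3 was 33.3 ± 1.56% without GM-CSF and 22.8 ± 0.131% with it, and 22.02 ± 0.312% with DON, while Mitf held 4.48% to 5.93% in the group means. These shares are a description of deposited FPKM values, and no test was made of them. The sum of the 4 genes was 168 ± 2.34, 184 ± 0.864 and 193 ± 6.92 FPKM, so that the family's RNA as a whole was lowest without GM-CSF although 3 of its genes were highest or intermediate there.

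**Figure D3:**
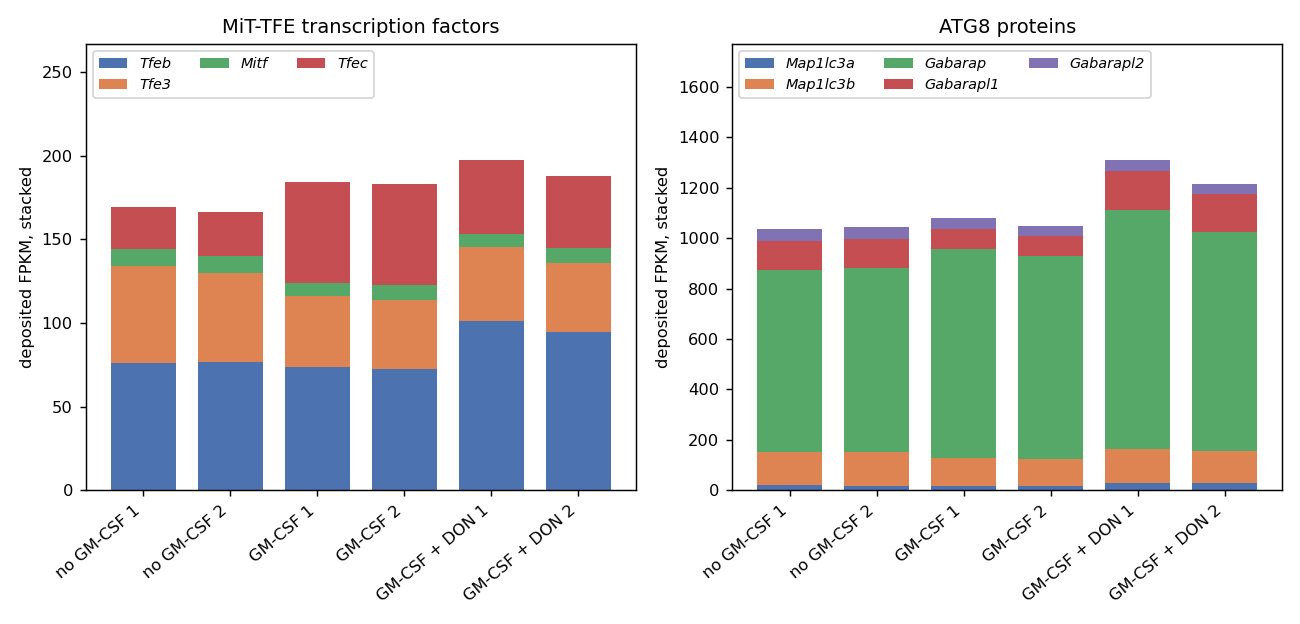
Deposited FPKM (y axis, stacked from 0) of the 4 MiT-TFE genes (left) and the 5 ATG8 genes (right) in each of the 6 libraries (x axis). The Tfec segment is widest with GM-CSF alone (60.2 and 60.3 FPKM), the Tfeb segment with DON (101 and 94.7 FPKM), and Gabarap fills most of every bar on the right.

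Flcn (chr11:59791408-59810039) encodes folliculin, the GTPase-activating protein that acts on RagC and RagD. It was at 99.9 and 103 CPM without GM-CSF, 93.5 and 90.4 with GM-CSF alone, and 131 and 122 in the DON group. The DON libraries were the highest, with no overlap. Flcn rose with DON by 0.46 ± 0.05 (log2 fold change ± SE, edgeR adjusted p = 3.99e-05), a 1.38-fold difference, and was higher than without GM-CSF by 0.32 ± 0.05 (edgeR adjusted p = 0.000467). Its fall with GM-CSF, 0.14 on the log2 scale (SE 0.05, edgeR adjusted p = 0.0408), was lost in 10 of 11 alternatives, each single-library omission among them, with adjusted p from 0.0205 to 0.197. Its 2 partner genes differed: Fnip2 fell with GM-CSF from 756 ± 66.7 to 448 ± 4.40 CPM (-0.76 ± 0.06) and stood at 449 ± 6.94 CPM with DON. Fnip1, named here outside the rule because it is the other partner, went from 126 ± 8.88 to 102 ± 0.988 and 129 ± 4.59 CPM, a fall with GM-CSF of 0.30 on the log2 scale (SE 0.06) and a rise with DON of 0.34 ± 0.06.

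Other genes that act on the factors were taken from a fixed list of 20 regulators and family members, 19 of which were in the table and tested. With GM-CSF 6 rose (31.6%, against 27.5% of all genes) and 8 fell (42.1%, against 29.3%). With DON 9 rose (47.4%) and 6 fell (31.6%), against 28.8% of all genes each way. The rises with GM-CSF and the falls with DON were thus near the shares of all genes. Among the 9 rises with DON, those of Gsk3b, Tsc1 and Rragc were lost in 9, 5 and 4 of 11 alternatives. The list's median was -0.11 with GM-CSF and 0.01 with DON. Leaving out replicate 2 of the GM-CSF group lowered the 6 to 3. Rragd, which encodes the RagD GTPase on which folliculin acts, fell with GM-CSF from 23.2 ± 1.85 to 10.8 ± 0.235 CPM (-1.10 ± 0.09) and rose with DON to 23.0 ± 1.60 CPM (1.09 ± 0.09). Rragc and Rraga are named outside the rule. Rragc, the RagC gene, moved less, from 427 ± 12.5 to 385 ± 15.2 and 423 ± 2.05 CPM (-0.15 ± 0.04 and 0.13 ± 0.04). Both of its calls were lost when single libraries were left out. Rraga went the reverse way (0.24 ± 0.06 and -0.26 ± 0.06). Mcoln1, the calcium channel that activates calcineurin, went from 117 ± 0.529 to 83.5 ± 0.7 and 194 ± 2.45 CPM, log2 fold changes of -0.49 ± 0.04 and 1.21 ± 0.04. Ppp3ca, a catalytic subunit of calcineurin, which removes the phosphates that hold TFEB in the cytoplasm, fell with GM-CSF (-0.71 ± 0.05) and rose with DON (0.40 ± 0.05). The other calcineurin genes listed did not follow it. Ppp3cb, named outside the rule, rose with GM-CSF (0.23 ± 0.06) and fell with DON (-0.22 ± 0.06). Both calls of Ppp3cb were lost without replicate 2 of the GM-CSF group. Ppp3r1 rose with GM-CSF (0.23 ± 0.04) and was not called with DON (-0.08 ± 0.04). Ywhaz, a 14-3-3 protein gene of the kind that retains the phosphorylated factors, rose with GM-CSF (0.30 ± 0.04) and fell with DON (-0.38 ± 0.04).

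Ulk1 (chr5:110784489-110810120) encodes the kinase that starts autophagosome formation and is restrained by mTORC1. It was at 43.2 and 38.7 CPM without GM-CSF, 23.2 and 27.9 with GM-CSF alone, and 39.1 and 44.4 in the DON group. The GM-CSF libraries were the lowest, and the other groups overlapped each other. Ulk1 had the largest fall of the members with GM-CSF in this fit, 0.68 on the log2 scale (SE 0.10, edgeR adjusted p = 0.000193), or 1.61-fold. With DON it rose by 0.71 ± 0.10 (edgeR adjusted p = 0.000153), and against no GM-CSF it differed by 0.03 ± 0.09 (edgeR adjusted p = 0.805). Of the other 4 genes of the ULK complex list, edgeR called 0 with GM-CSF, where 29.3% of all genes fell and 56.8% changed. At an unadjusted p under 0.05 1 was lower, and DESeq2 and limma called 0. The count of 0 did not hold when replicate 1 of the GM-CSF group was left out. A list of 4 genes is too short to set such counts against the shares of all genes. Atg13, the kinase's adaptor, rose with DON from 53.1 ± 5.31 to 81.2 ± 0.0602 CPM (0.61 ± 0.07). With DON 2 of the 4 rose (50%), against 28.8% of all genes. Ulk2 was the second gene called higher (0.18). That call was lost without replicate 1 of the GM-CSF group or replicate 2 with DON, with DESeq2, and with limma on FPKM.

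Uvrag (chr7:98886742-99141167) encodes a Beclin-1 partner that steers the lipid kinase VPS34 towards maturation of autophagosomes and endosomes. It was at 44.5 and 44.0 CPM without GM-CSF, 35.5 and 39.0 with GM-CSF alone, and 57.4 and 60.6 in the DON group. The groups did not overlap, and the DON libraries were the highest. Uvrag rose with DON by 0.66 ± 0.06 (edgeR adjusted p = 1.04e-05), or 1.58-fold, and was above the level without GM-CSF by 0.42 ± 0.06 (edgeR adjusted p = 0.000223). The fall with GM-CSF was 0.25 on the log2 scale (SE 0.06, edgeR adjusted p = 0.0062), and was not called without replicate 1 of the GM-CSF group (-0.18, adjusted p = 0.07, against a lowest of 0.00263 over the alternatives). Of the 7 other genes of the VPS34 complex list, 3 fell with GM-CSF and 3 rose with DON (42.9% each, against 29.3% and 28.8% of all genes). Among the rises, that of Nrbf2 (0.17, edgeR adjusted p = 0.0463) was lost in 8 of 11 alternatives, DESeq2 and limma on FPKM among them. Among the falls, that of Atg14 was lost without replicate 2 of the GM-CSF group and with DESeq2. Atg14, the subunit that directs the kinase to new autophagosomes, rose with DON from 12.1 ± 0.53 to 19.5 ± 0.161 CPM (0.68 ± 0.08). The gene of Rubicon, a brake on the UVRAG complex (1700021K19Rik in the table), fell with GM-CSF (-0.44 ± 0.07) and rose with DON (0.40 ± 0.07).

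Wipi1 (chr11:109573521-109611389), whose product binds the VPS34 lipid on the growing membrane, was the exception among the members. It was at 10.8 and 11.2 CPM without GM-CSF, 12.3 in both libraries with GM-CSF, and 9.69 and 9.77 in the DON group. The groups did not overlap, with GM-CSF highest and DON lowest. Wipi1 fell with DON by 0.34 on the log2 scale (SE 0.08, edgeR adjusted p = 0.0063), a call that DESeq2 did not make (-0.35, adjusted p = 0.051, the highest over the alternatives). The other comparisons gave 0.16 ± 0.08 with GM-CSF (edgeR adjusted p = 0.117) and -0.17 ± 0.09 for the DON group against no GM-CSF (edgeR adjusted p = 0.111). With 277 to 420 counts a library it had the least depth of the 10.

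Wipi1 acts at the step where the membrane grows and ATG8 proteins are attached to it, and 20 other genes of that step were listed. With GM-CSF 4 rose and 10 fell (20% and 50.0%, against 27.5% and 29.3% of all genes), and with DON 10 rose and 2 fell (50.0% and 10%, against 28.8% each way). The GM-CSF counts were fragile: 5 fell without replicate 1 of the group without GM-CSF, 6 fell without replicate 1 of the GM-CSF group, and 2 rose without its replicate 2. Of the 2 that fell with DON, Wdr45l lost its call without either GM-CSF replicate and without replicate 1 with DON. It also lost it with upper-quartile scaling and with limma on FPKM. Atg2a, a lipid transfer protein gene, went from 67.8 ± 7.29 to 44.5 ± 1.24 and 84.5 ± 4.05 CPM (-0.61 ± 0.07 and 0.93 ± 0.07). Atg12, the ubiquitin-like modifier of Atg5, fell by 0.32 on the log2 scale with GM-CSF (SE 0.05) and rose by 0.69 ± 0.05 with DON, and Atg4c, an ATG8 protease gene, changed likewise (-0.39 ± 0.06 and 0.73 ± 0.06). Vmp1, an endoplasmic reticulum scramblase gene, rose in both steps, from 80.7 ± 0.697 to 119 ± 1.53 and 152 ± 11.1 CPM (0.56 ± 0.06 and 0.35 ± 0.06).

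Map1lc3b (chr8:121590438-121598760) and Gabarapl1 (chr6:129533192-129542331) encode ATG8 proteins, the small ubiquitin-like proteins that are joined to lipid on the autophagosome and bind cargo receptors. Map1lc3b was at 201 and 206 CPM without GM-CSF, 171 and 165 with GM-CSF alone, and 206 and 193 in the DON group. The GM-CSF libraries were lowest, and the other groups overlapped. It fell with GM-CSF by 0.28 on the log2 scale (SE 0.05, edgeR adjusted p = 0.00067) and rose with DON by 0.25 ± 0.05 (edgeR adjusted p = 0.00134), the smallest rise of the 7. The DON group against no GM-CSF gave -0.03 ± 0.05 (edgeR adjusted p = 0.634). In GENCODE M21 it has 4 processed pseudogenes at least 96.5% identical over 360 to 378 bases, 2 of them in the table with at most 27 counts, so that part of its reads may be split. Zcchc14, at most 441 counts, overlaps its gene by 64 bases.

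Gabarapl1 moved further. Its libraries were at 183 and 185 CPM without GM-CSF, 122 and 125 with GM-CSF alone, and 246 and 239.9 in the DON group. No groups overlapped, and the DON libraries were the highest. Gabarapl1 fell with GM-CSF by 0.57 on the log2 scale (SE 0.04, edgeR adjusted p = 1.83e-06), rose with DON by 0.98 ± 0.04 (edgeR adjusted p = 1.05e-07), or 1.97-fold, and was higher with both than without GM-CSF by 0.40 ± 0.04 (edgeR adjusted p = 2.17e-05). Its share of the summed FPKM of the 5 ATG8 genes was 11.2 ± 0.00925%, 7.39 ± 0.309% and 12.2 ± 0.43% in the 3 groups, where that of Map1lc3b was 12.8 ± 0.0873%, 10.4 ± 0.0362% and 10.3 ± 0.072%. Gabarap held 69.6 ± 0.0421%, 76.7 ± 0.215% and 71.9 ± 0.612%. Map1lc3a, the least abundant ATG8 gene per length, went from 16.2 ± 1.25 to 12.6 ± 0.117 and 25.0 ± 0.604 CPM, falling with GM-CSF (-0.36 ± 0.08) and rising with DON (0.98 ± 0.08). Gabarap was called higher with GM-CSF and with DON by 0.15 each, and Gabarapl2 lower with GM-CSF by 0.22 on the log2 scale, but each of these calls was lost when single libraries were left out: replicate 1 of either group for Gabarap with GM-CSF, either GM-CSF replicate or replicate 1 with DON for Gabarap with DON, and replicate 2 of either group for Gabarapl2.

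Sqstm1 (chr11:50200152-50210820) encodes p62, the receptor that links ubiquitin-marked cargo to ATG8 proteins and is itself degraded by autophagy. It was at 558 and 546 CPM without GM-CSF, 380.0 and 407 with GM-CSF alone, and 792 and 779 in the DON group. The 3 groups lay far apart relative to their replicates, lowest with GM-CSF and highest with DON. Sqstm1 fell with GM-CSF by 0.49 on the log2 scale (SE 0.04, edgeR adjusted p = 5.97e-06) and rose with DON by 0.998 ± 0.04 (edgeR adjusted p = 9.65e-08), or 2.00-fold. Against no GM-CSF it was higher by 0.51 ± 0.04 (edgeR adjusted p = 4.46e-06). A transcript of the neighbouring gene Mrnip shares 583 bases with Sqstm1 in GENCODE M21, and the strand setting of the counting is not given in the sources used here.

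Of 16 other cargo receptor genes listed, 15 were tested. With GM-CSF 2 rose (13.3%) and 9 fell (60.0%), against 27.5% and 29.3% of all genes, with a median of -0.49. With DON 8 rose (53.3%) and 2 fell (13.3%), against 28.8% each way, with a median of 0.21. The 2 falls with DON became 1 without replicate 2 of the GM-CSF group or replicate 1 with DON. Calcoco1, a receptor for endoplasmic reticulum, went from 27.9 ± 0.0273 to 15.04 ± 0.43 and 39.2 ± 1.44 CPM (-0.89 ± 0.07 and 1.38 ± 0.06), and Ccpg1, another receptor of that organelle, from 67.2 ± 0.52 to 39.4 ± 0.266 and 90.0 ± 4.73 CPM (-0.77 ± 0.05 and 1.19 ± 0.05). Fam134b, also a receptor of that organelle, fell with GM-CSF from 113 ± 2.52 to 61.4 ± 0.0555 CPM (-0.88 ± 0.05). It was at 66.8 ± 3.04 CPM with DON, not called against GM-CSF (0.12) and below no GM-CSF (-0.75 ± 0.05). Optn, a receptor for mitochondria and bacteria, fell with GM-CSF (-0.68 ± 0.05) and rose with DON (0.64 ± 0.05), as did the ferritin receptor gene Ncoa4 (-0.98 ± 0.04 and 0.51 ± 0.04). Phb2, an inner mitochondrial membrane receptor, did the reverse (0.32 ± 0.05 and -0.41 ± 0.05).

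The last steps are fusion with the lysosome and breakdown inside it by enzymes whose genes are among the targets of TFEB. Of 13 fusion genes tested 2 rose (15.4%) and 7 fell (53.8%) with GM-CSF, against 27.5% and 29.3% of all genes. Among the 7 falls, those of Vps41 (-0.13) and Vamp8 (-0.19) were lost in 9 and 6 of 11 alternatives. With DON 7 rose (53.8%) and 3 fell (23.1%), the latter near the 28.8% of all genes that went each way. Tecpr1, a tether of autophagosomes and lysosomes, went from 287 ± 5.71 to 132 ± 3.06 and 280.0 ± 0.643 CPM (-1.12 ± 0.04 and 1.08 ± 0.04). Snap29, a fusion SNARE gene, ran opposite, from 82.5 ± 0.136 to 184 ± 0.00365 and 130.3 ± 0.828 CPM (1.16 ± 0.04 and -0.50 ± 0.04). Of 25 lysosomal CLEAR targets, 19 fell (76.0%) and 2 rose (8.0%) with GM-CSF (median -0.60), and 22 rose (88.0%) and 1 fell (4.0%) with DON (median 0.49). The 2 became 0 or 1 without any 1 library of the compared groups, and the 1 became 0 without replicate 2 of the GM-CSF group or either DON replicate. Gpnmb, a macrophage glycoprotein gene, fell with GM-CSF from 11067 ± 224 to 3399 ± 104 CPM (-1.70 ± 0.03) and rose with DON to 6678 ± 30.0 CPM (0.97 ± 0.03). Gaa rose with DON from 109.9 ± 0.683 to 270 ± 2.26 CPM (1.30 ± 0.05), and Clcn7 from 187 ± 1.15 to 302 ± 6.27 CPM (0.70 ± 0.04). The aspartic protease gene Ctsd fell with GM-CSF by 0.97 on the log2 scale (SE 0.03) and rose with DON by 0.53 ± 0.03.

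Together the 5 autophagy lists and the fusion list held 62 tested genes other than the members. With GM-CSF 9 rose (14.5%) and 31 fell (50.0%), against 27.5% and 29.3% of all genes, with a median of -0.15. With DON against GM-CSF 32 rose (51.6%) and 7 fell (11.3%), against 28.8% each way, with a median of 0.16. In the DON group against no GM-CSF, 20 rose (32.3%) and 15 fell (24.2%), with a median of 0.05, where 27.2% and 28.4% of all genes did. The CLEAR targets gave 7 higher (28%) and 10 lower (40%) of 25 there. The members had larger medians than these 62 genes in the DON comparison, at 0.45. That difference was not tested.

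**Figure D4:**
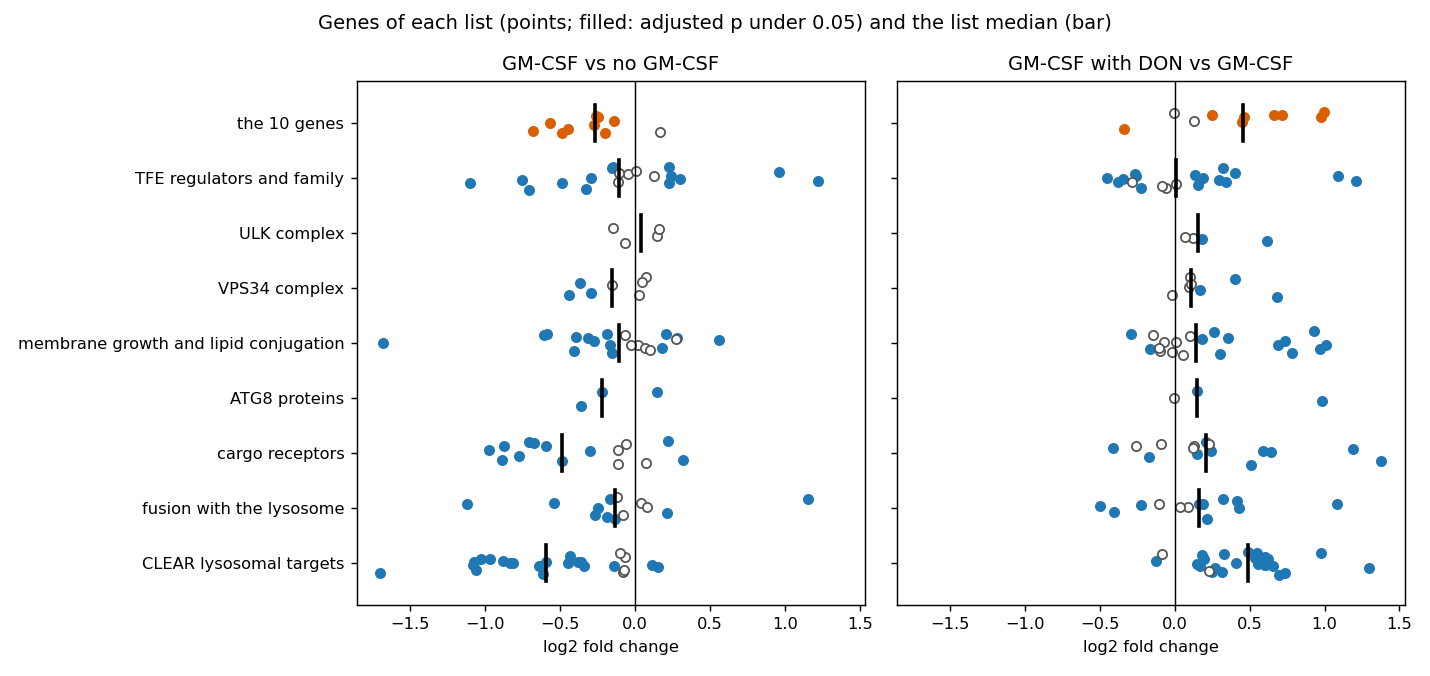
Log2 fold change (x axis) of every tested gene of each list (rows; points, filled at an adjusted p under 0.05) with the list median as a bar, for GM-CSF against no GM-CSF (left) and GM-CSF with DON against GM-CSF (right). The 10 members have medians of -0.27 and 0.45, and the 25 CLEAR lysosomal targets of -0.60 and 0.49.

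Set beside no GM-CSF, the members in the DON group fell into 3 kinds. Sqstm1, Uvrag, Gabarapl1, Flcn and Tfeb were above the level without GM-CSF, by 0.51, 0.42, 0.40, 0.32 and 0.25 on the log2 scale. Map1lc3b (-0.03) and Ulk1 (0.03) overlapped it, and Mitf and Wipi1 were not called, which does not show that they were equal. Tfe3 alone was lower, at -0.46, except that Mitf was also called lower without replicate 2 with DON.

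The genes with the profile most like that of Tfeb over the 6 libraries were Ccdc117, Slc12a9 and Abhd16a, at Euclidean distances of 0.0395, 0.0455 and 0.0534 in centred log2 CPM, out of 8163 genes averaging 10 CPM or more. Ccdc117 was at 19.4 ± 0.235, 17.3 ± 0.135 and 23.4 ± 0.735 CPM in the 3 groups. Nearest to Tfe3 were Traf2, Ndst2 and Rap2b (0.065, 0.0685 and 0.0689). Traf2, a signalling adaptor of tumour necrosis factor receptors, was at 32.6 ± 0.556, 23.4 ± 0.234 and 23.2 ± 0.0915 CPM. Shkbp1, Btbd9 and Twistnb were nearest to Mitf (0.0874, 0.088 and 0.0939). Around Sqstm1 lay Pdk2, Mgll and Ptgr2 (0.098, 0.111 and 0.116). Mgll, the monoglyceride lipase gene, was at 1010 ± 28.1, 740.1 ± 3.05 and 1458 ± 13.5 CPM. No list gene was among these 12, and the distances were computed on 3 groups of 2 libraries, so they mostly describe 3 group means.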

How the data were processed

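RNA was sequenced in 6 libraries, 3 groups of 2. The authors deposited a table of whole-number read counts per gene symbol and, for the same genes, FPKM values that they had computed. The submitters' processing notes name the build mm10 and, without their roles, DESeq2 1.28.1, STAR 2.6.0a, Subread 1.4.6 and featureCounts. Which annotation, strand setting and gene filters they used is not given in the sources used here. No per-sample column was left out of use.

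Counts were fitted with edgeR 4.0.16 (R 4.3.3) over all 6 libraries with 1 coefficient per group, after filterByExpr (minimum count 10) and TMM scaling (trimmed mean of M values). Two-sided contrasts were tested by quasi-likelihood, with Benjamini-Hochberg adjustment over 12340 genes and calls at adjusted p under 0.05. There were 3 residual and 6.74 prior degrees of freedom and a common biological coefficient of variation of 0.0501. The fit was tested on simulated data. CPM values use TMM-scaled library sizes, and levels between genes use the deposited FPKM. Replicates differed by more than counting noise (chi-square per degree of freedom 8.46, 5.29 and 4.50), and no columns were identical.

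Alternatives were relative log expression and upper-quartile scaling, no filter, a replicate block, only the compared groups, each library left out, DESeq2 1.42.0, and limma 3.58.1 on log2(FPKM + 0.1). The members, the 8 gene lists (109 entries, 107 in the table, 4 by an older symbol) and all rules were chosen with earlier results of these data known. Beside the members, the naming rule took up to 3 genes per list, comparison and direction with the smallest adjusted p, from which the text draws examples, the 3 nearest genes to Tfeb, Tfe3, Mitf and Sqstm1, Tfec and macrophage markers. The ATG8 genes are named whole. Promoters came from RefSeq windows on GRCm38.p6, near-identical transcripts from a BLAST 2.17.0 search of GENCODE M21. Python 3.11.15 was used for tables and figures. Protein alignments were not made.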

Additional observations from a re-analysis of the deposited data

How the results depend on the processing

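Of 330 values of the 10 members under the alternatives, 312 kept their side of the threshold and, where called, their direction, 15 lost a call, 3 gained one and 0 called values reversed. The lost calls were those of Flcn, Tfeb, Mitf and Uvrag with GM-CSF and of Wipi1 with DON, described above, and the gained ones were of Mitf. Uncalled values of Tfe3 with DON and of Map1lc3b and Ulk1 with DON against no GM-CSF took either sign. Leaving out 1 library at a time, 6 to 8 members fell with GM-CSF, 7 to 8 rose and 1 fell with DON, and 5 were higher and 1 to 2 lower with GM-CSF and DON against no GM-CSF. The cause was not tested. With a lone library left in a group, that library is assumed to vary like the others. DESeq2 called 0 members lower with DON against GM-CSF in place of 1. Of 528 list counts, 460 stayed within 1.5 times. Among the listed genes, Wipi2 reversed with DON against GM-CSF, from 0.18 (edgeR adjusted p = 0.0268) to -0.0601 with limma on log2(FPKM + 0.1). Upper-quartile scaling moved the median of all genes by 0.075 with DON against GM-CSF, and risen genes from 50.0% to 59.0% of those called.

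With the replicate number as a block, 3238 genes rose and 3470 fell with GM-CSF, 3433 and 3449 with DON against GM-CSF, and 3185 and 3357 with both against none. Members gave 0 and 8, 7 and 1, and 5 and 1, with the fall of Flcn the lost call. Whether the numbers pair the samples is not known, as the labels tie no number to a shared culture. Replicate differences correlated at -0.05, -0.31 and 0.07 between groups over 8164 genes, which cannot exclude a pairing.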
